A study of Mus musculus with 18 samples.

Results

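The protocadherin genes were taken as all genes whose symbol starts with Pcdh, each read by the probe set that carries that symbol alone and has the highest mean over the arrays. The rule found 35 genes among 18193 measured. They comprise 23 genes of the clustered family, which are 22 beta genes and Pcdhgc4 of the gamma group, and 12 non-clustered genes. All 22 beta and all 12 non-clustered genes of the RefSeq table were covered, but only 1 of 21 gamma genes and 0 of 14 alpha genes. The alpha genes were read only by probe sets that list several of them, described apart from the 35.

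Protocadherins are cell adhesion proteins of the cadherin superfamily that bind the same protein on a neighbouring cell. The clustered genes lie in tandem as the alpha, beta and gamma groups. For most of them, though not all, each neuron switches on its own small choice of promoters, helped by the DNA-binding protein CTCF and the cohesin ring. In the alpha and gamma groups each variable exon is spliced to constant exons shared by the whole group, whereas each beta gene is a gene of its own. In cerebellar Purkinje cells, the output neurons of the cerebellar cortex, gamma protocadherins keep branches of the same dendritic tree from overlapping. The non-clustered genes stand alone in the genome and act in cell sorting, axon growth and synapse formation.

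Expression was profiled in whole cerebellum of C57BL/6 mice with Affymetrix mouse arrays, to study spinocerebellar ataxia type 6 and the last coding exon of Cav2.1, the calcium channel that Cacna1a encodes. The 6 groups of 3 arrays were homozygous MPI 118Q/118Q knock-in, homozygous Sca6 CtmKO/CtmKO and homozygous MPI 11Q/11Q knock-in mice, and for every mutant group its own wild-type littermates. The labels give 6 weeks of age for the 118Q/118Q and CtmKO/CtmKO mutants and no age for the other groups, and they do not spell out MPI or Ctm. The labels do not say more of the replicates than that they are separate samples, so p-values measure the spread between these samples. Because the tissue is a mixture, fewer cells of a type and less RNA per cell cannot be told apart.

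Array medians ran from 2.38 to 2.55 on the deposited log2 scale, and correlations between arrays from 0.981 to 0.996. Cacna1a itself differed by -0.29 (SE 0.15, adjusted p = 0.341) in the 118Q line, -0.061 in the Ctm line and -0.086 in the 11Q line, so its level does not check the labels. Wild-type arrays 2 and 3 of the Ctm line stood apart in the fucosyltransferase gene Fut9. It read 3.95 and 4.67 there, 7.46 on the other Ctm wild type and 7.66 to 8.25 on the remaining 15 arrays. Over all genes, these arrays were the lowest of the 18 for 5.89% and 4.89% and the highest for 3.74% and 9.90%. For the members named, the shared alpha sets and the regulators of promoter choice, values without both arrays are given as well, where the single Ctm wild type left is assumed to vary like the other groups. Per array, knock-in array 2 of the 118Q line was the lowest of all 18 for 13 of the 35 protocadherins, 10 of them clustered, against 7.42% of all genes. Wild-type array 3 of the 11Q line was the highest for 10 of 35, against 9.01% of all genes.

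Promoter sequence could be shown for non-clustered genes, since 9 of them are in the RefSeq promoter table used here (GRCm38.p6). The 3 shown belong to the non-clustered genes with the smallest p-values in the 118Q line, whose values follow. Each is the 250 bases before the gene's start, 5′ to 3′ on the gene's strand, and capitals mark matches on either strand to the CCAAT motif, to the GC box with the letters GGGCGG and to the TATAA motif. They are chr14:79771313-79771562 (minus strand) for Pcdh8, chrX:133688994-133689243 (minus strand) for Pcdh19 and chr14:88471397-88471646 (minus strand) for Pcdh20.
Pcdh8: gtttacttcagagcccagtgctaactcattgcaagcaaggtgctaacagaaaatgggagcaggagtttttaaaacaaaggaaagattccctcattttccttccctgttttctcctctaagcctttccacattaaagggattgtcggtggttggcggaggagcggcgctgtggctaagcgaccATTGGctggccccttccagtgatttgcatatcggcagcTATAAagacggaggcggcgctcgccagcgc
Pcdh19: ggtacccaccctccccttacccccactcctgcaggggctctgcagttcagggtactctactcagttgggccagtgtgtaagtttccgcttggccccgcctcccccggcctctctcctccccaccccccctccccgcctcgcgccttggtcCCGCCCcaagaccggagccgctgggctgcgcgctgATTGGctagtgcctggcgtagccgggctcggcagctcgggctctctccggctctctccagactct
Pcdh20: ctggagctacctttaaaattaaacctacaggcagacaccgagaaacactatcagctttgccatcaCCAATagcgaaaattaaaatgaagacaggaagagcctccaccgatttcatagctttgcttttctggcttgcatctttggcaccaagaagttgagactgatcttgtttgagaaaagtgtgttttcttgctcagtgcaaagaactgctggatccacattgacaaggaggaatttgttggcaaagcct
The 3 windows differ in make-up, with 51.2% G and C in Pcdh8, 69.2% in Pcdh19 and 42.4% in Pcdh20, beside a median of 52.4% over 32851 promoters. The CCAAT motif occurred 1 time in each, the GC box in Pcdh19 alone and the TATAA motif in Pcdh8 alone, and no marked motifs overlapped. Among the 9 genes, 8 held the CCAAT motif in at least 1 of their windows, 4 the GC box and 3 the TATAA motif. Of all single promoters of this length 33.8%, 32.7% and 22.8% did. A gene counted if any of its windows held the motif, so the gene counts and these percentages cannot be compared. These matches are a description of the letters, and none was tested as a binding site.

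In the 118Q line the protocadherins were mostly lower in knock-in than in wild-type cerebellum, but limma called 0 of 35 at an adjusted p under 0.05, where it called 1.54% of all genes. Of the 35, 27 had a change below 0, against 41.3% of all genes, and their median change was -0.18 log2 units, against 0.040 over all genes. At an unadjusted p under 0.05 there were 8 members, all lower, beside 16.1% of all genes in either direction and 5.69% lower. Every knock-in array lay below every wild type for 7 members (6.11% of all genes) and above for 0 (12% of all genes). The smallest adjusted p was 0.0702, and no member's 95% interval reached below -1.17 or above 0.42.

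**Figure D1:**
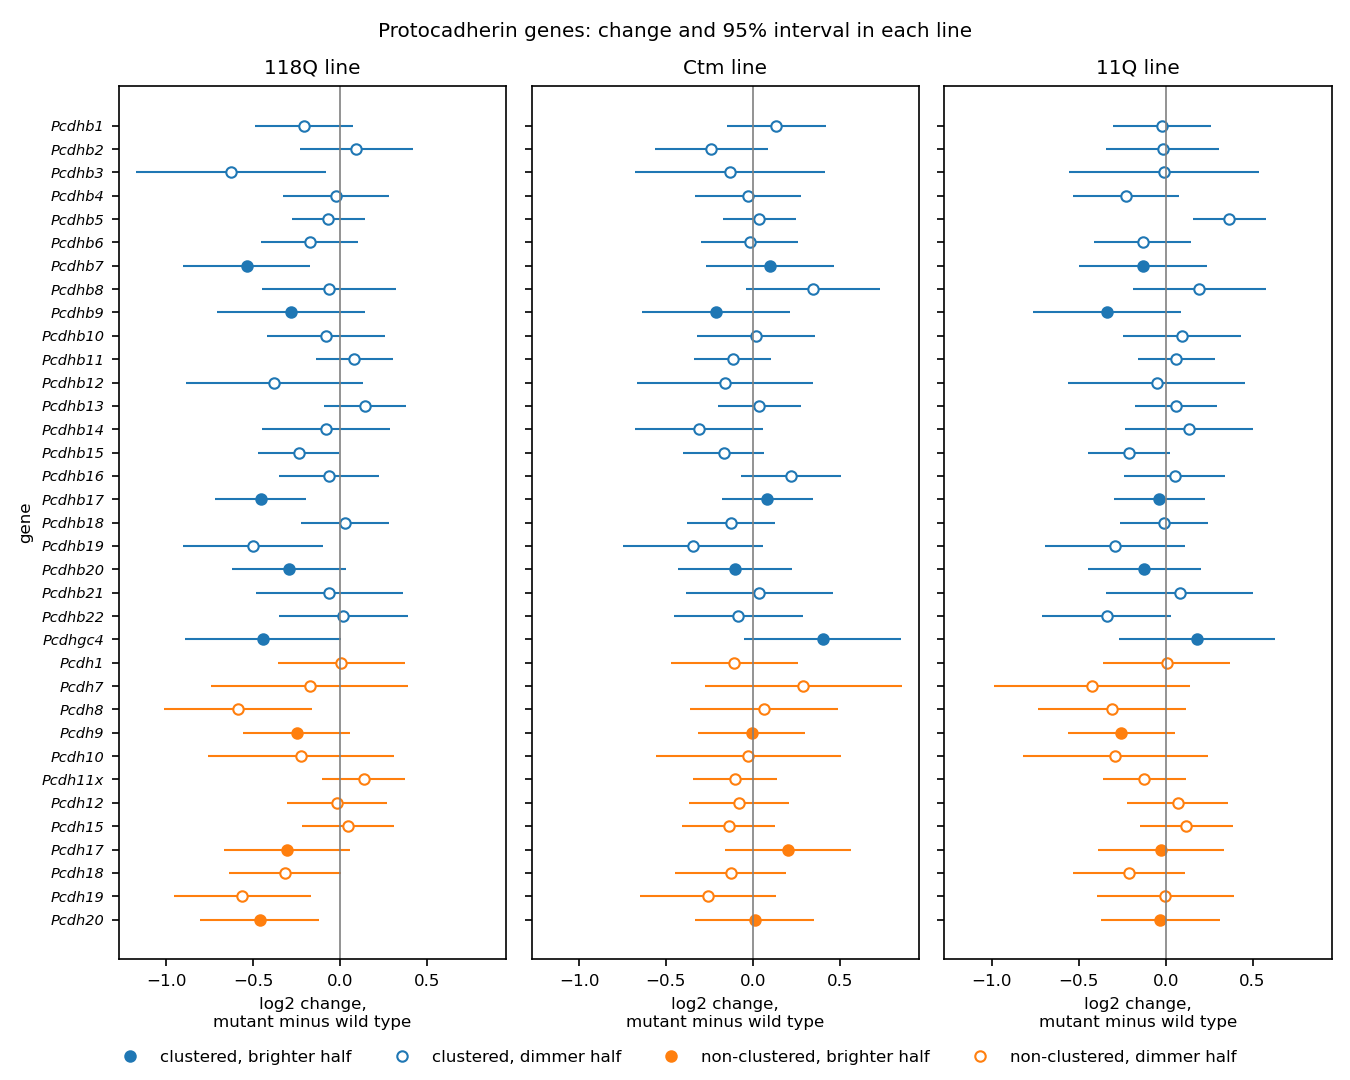
Change of each of the 35 protocadherin genes (rows) in the 118Q, Ctm and 11Q lines (panels), as the log2 mean of 3 mutant arrays minus that of 3 wild-type arrays; bars are 95% intervals from limma, blue is clustered, orange non-clustered, and filled points are the 8 genes in the brighter 50% of all genes. In the 118Q panel all 8 filled points lie below 0, while in the Ctm panel they lie on both sides.

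The 8 members whose mean signal placed them in the brighter 50% of genes were Pcdhb7, Pcdhb9, Pcdhb17, Pcdhb20, Pcdhgc4, Pcdh9, Pcdh17 and Pcdh20. All 8 were below 0 in the 118Q line, against 39.9% of the genes in that brighter 50%, with changes from -0.54 to -0.25 and a median of -0.37. Below 0 in the Ctm line were 3 of the 8 (68.1% of those genes), and in the 11Q line 7 (60.8%), or 4 without wild-type array 3. This split was chosen after the values were seen, and the 27 dimmer members lie where the arrays measure change least well.

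Among the clustered genes, 18 of 23 were below 0 in the 118Q line with a median of -0.082. Pcdhb17 (Entrez gene 93888) had the smallest p: the wild types read 4.65, 4.90 and 4.91 and the knock-ins 4.61, 4.13 and 4.36. All 3 knock-ins were below the wild types, knock-in array 1 by little. The change was -0.46 (SE 0.12, 95% interval -0.72 to -0.19), which is 1.37-fold lower, with an adjusted p of 0.0702. Over the alternatives the adjusted p ran from 0.00922 with array weights to 0.286 with the 6 arrays of the line alone, and it was 0.0135 without knock-in array 1 and 0.276 without knock-in array 2.

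Pcdhb7 (Entrez gene 93878) read 3.98, 4.11 and 4.54 in the wild types and 3.88, 3.55 and 3.59 in the knock-ins, again without overlap. Its change of -0.54 (SE 0.17, 95% interval -0.90 to -0.17) had an adjusted p of 0.123. Pcdhb19 (Entrez gene 93890) read 2.08, 1.90 and 2.41 in the wild types and 1.93, 1.501 and 1.45 in the knock-ins. There knock-in array 1 lay just above the lowest wild type, so the groups overlapped, and the change of -0.50 (SE 0.19) had an adjusted p of 0.194. Beta protocadherins such as these are adhesion receptors that each neuron combines with alpha and gamma members.

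The other clustered members that passed an unadjusted p of 0.05 were Pcdhb3 at -0.63 (SE 0.26) and Pcdhb15 at -0.24 (SE 0.11), with overlapping groups. Pcdhb1 also showed all knock-ins below all wild types, at -0.21, but it is a dim gene that exceeded the array median on 0 of the 18 arrays. The same holds for Pcdhb5, Pcdhb8, Pcdhb19 and Pcdh15, whose array values are given in this text. The 5 clustered genes above 0 ranged up to 0.14 (Pcdhb13). Along the cluster, the lower members were not neighbours alone, since Pcdhb7, Pcdhb17 and Pcdhgc4 are 21st, 31st and 56th in gene order. Whether the probe set of a beta gene also reads transcripts of other beta genes was not checked. The suffixes of the sets kept for Pcdhb14 and Pcdhb15 mark probes that may match other transcripts.

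The alpha genes were read by 3 probe sets that list all 14 of them and by 3 dim ones that list 9. The 3 that list all 14 are called A, B and C here, from the brightest to the dimmest. They were tested, after the values were seen, in a fit over all 45037 probe sets. Probe set B read 6.41, 6.36 and 6.17 in the 118Q wild types and 6.02, 5.56 and 5.65 in the knock-ins, without overlap. It fell by 0.57 (log2, SE 0.13, 95% interval -0.84 to -0.31) with an adjusted p of 0.0366, where 1.25% of all probe sets were called. The call was lost with the RNA quality covariate (adjusted p = 0.122), with the 6 arrays of the line alone (0.179), and on leaving out any 1 of the 6 arrays other than knock-in array 1 (0.0718 to 0.167); its value then stayed between -0.71 and -0.48 over all 6 omissions.

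Probe set A read 7.86, 7.89 and 7.89 in the 118Q wild types and 7.56, 7.05 and 7.51 in the knock-ins. The 3 wild types were nearly equal and all above the knock-ins, and the change of -0.50 (SE 0.14) had an adjusted p of 0.0790. Probe set C read 4.76, 4.88 and 4.53 against 4.66, 4.04 and 4.31, an overlap, with a change of -0.38 (SE 0.16, adjusted p = 0.247). Which alpha transcripts these sets read was not analysed here, so they stand for the group and not for 14 measurements. In the other lines the 3 sets were at 0.020, -0.0052 and -0.20 (Ctm) and at 0.10, -0.020 and 0.087 (11Q), in the order A, B, C, and 0 of them were called there (0.975% of all probe sets in Ctm). The difference between the 118Q and Ctm changes of B was -0.57 (SE 0.18, adjusted p = 0.0918), and between 118Q and 11Q -0.55 (SE 0.18, adjusted p = 0.340), so neither was called (3.18% and 0% of all probe sets). Without Ctm wild types 2 and 3 the Ctm values of A, B and C were 0.16, 0.089 and -0.25, and the difference of B between 118Q and Ctm was -0.66 (adjusted p = 0.189). The 3 dim sets differed by -0.28, -0.16 and -0.010 in the 118Q line, with overlapping groups.

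**Figure D2:**
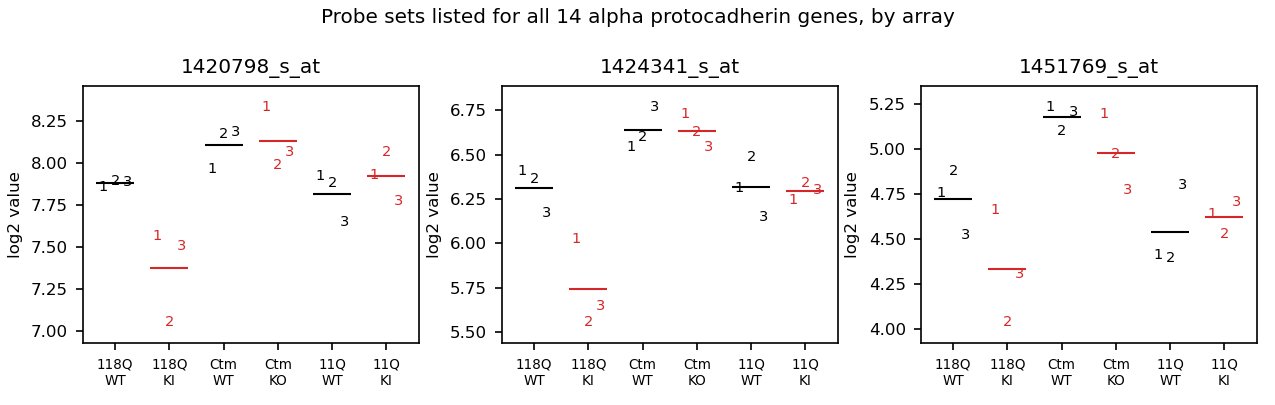
Log2 values of the 3 probe sets that list all 14 alpha protocadherin genes, on each of the 18 arrays, with set A in the left, B in the middle and C in the right panel; digits are replicate numbers, lines are group means, black is wild type and red is mutant. Knock-in array 2 of the 118Q line is the lowest of the 18 in each panel, at 7.05, 5.56 and 4.04.

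Non-clustered protocadherins in the 118Q line were below 0 in 9 of 12 genes, with a median of -0.24. The count was similar elsewhere, at 8 of 12 in the Ctm line (median -0.052) and 9 of 12 in the 11Q line (median -0.077). Pcdh19 (Entrez gene 279653), an X-linked adhesion gene mutated in a form of epilepsy, read 3.52, 3.66 and 3.51 in the wild types and 3.37, 2.60 and 3.04 in the knock-ins. All knock-ins were below all wild types and varied more than they did, and the change was -0.56 (SE 0.19, 95% interval -0.96 to -0.17, adjusted p = 0.132). Another of its probe sets showed -0.69 (SE 0.19), also without overlap, and a dim further one 0.095.

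Pcdh8 (Entrez gene 18530), which takes part in removing N-cadherin from synapses, read 3.04, 2.99 and 3.26 in the wild types and 2.38, 2.55 and 2.60 in the knock-ins. The groups did not overlap, and the change was -0.59 (SE 0.20, adjusted p = 0.145). Its other probe set gave -0.41 (SE 0.22), also without overlap, and the suffix of the brighter one marks probes that may also match other transcripts. Pcdh20 (Entrez gene 219257) read 4.17, 4.75 and 5.01 in the wild types and 3.96, 4.17 and 4.42 in the knock-ins. Wild-type array 1 lay among the knock-ins, and the change of -0.46 (SE 0.16) had an adjusted p of 0.158, or 0.0398 when that array was left out.

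Pcdh9 and Pcdh18 likewise had every knock-in below every wild type, at -0.25 (SE 0.15) and -0.32 (SE 0.15), and Pcdh17 was at -0.31 (SE 0.17) with overlap. Pcdh7, Pcdh10 and Pcdh12 were at -0.18, -0.22 and -0.016. Above 0 were Pcdh1 at 0.0066, Pcdh11x at 0.14 and Pcdh15, a part of the tip link of inner ear hair cells, at 0.045.

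**Figure D3:**
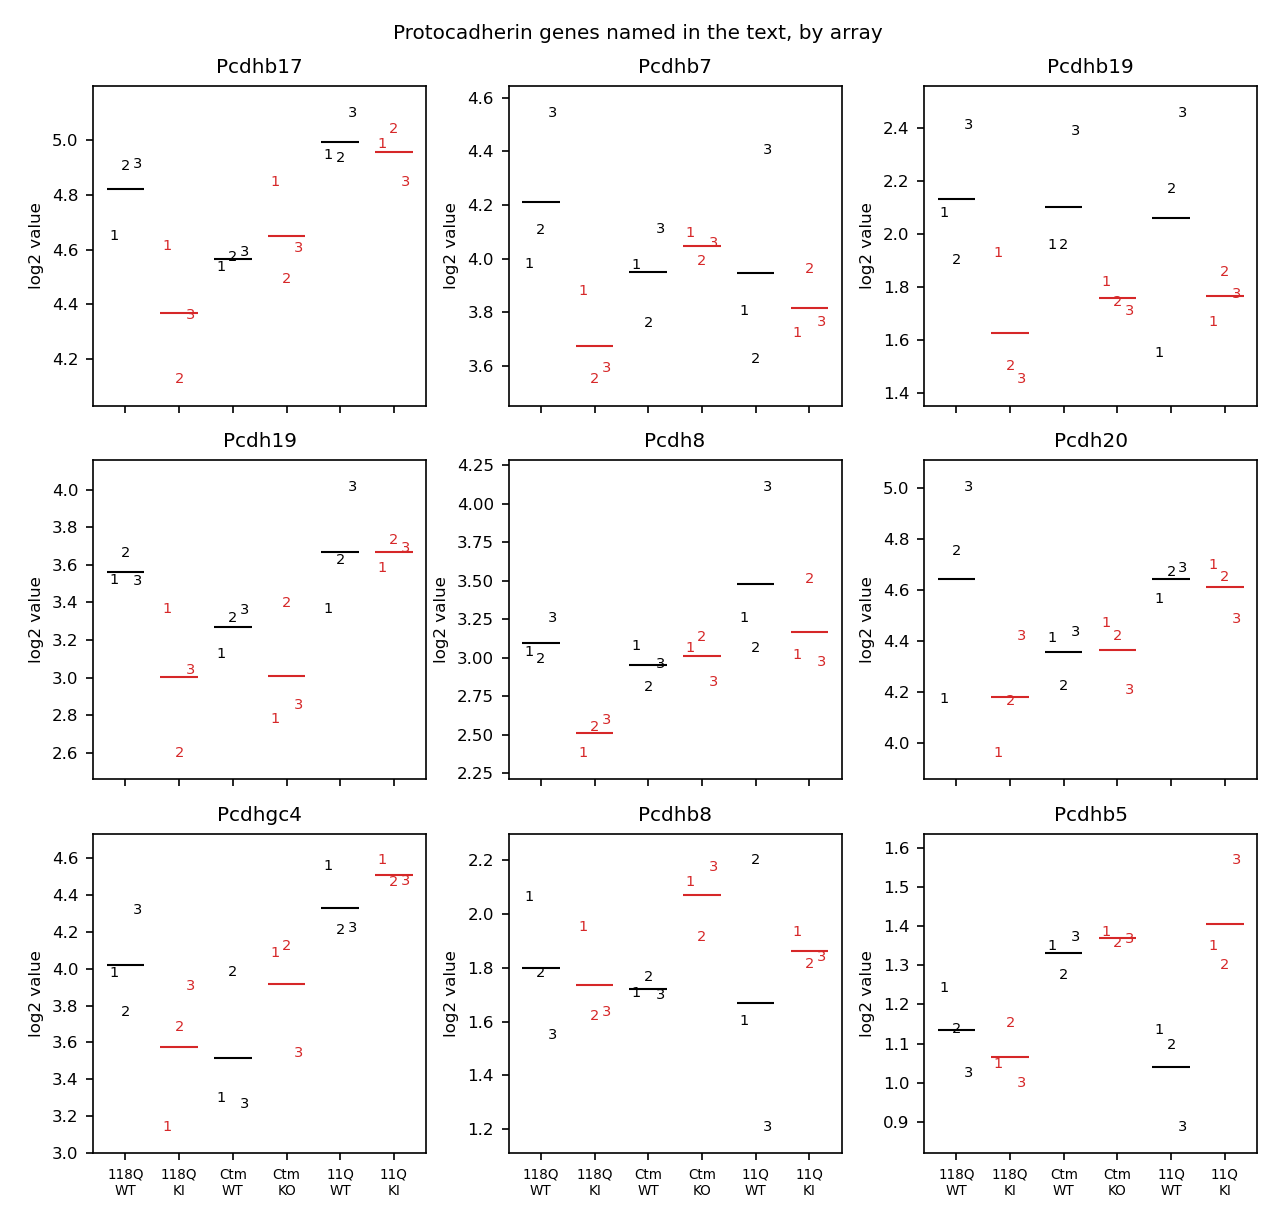
Log2 values of 9 protocadherin genes on each of the 18 arrays; digits are replicate numbers, lines are group means, black is wild type and red is mutant, and each panel has its own axis that does not start at 0. The 118Q knock-ins of Pcdhb17, Pcdhb7, Pcdh19 and Pcdh8 lie below their wild types, and those of Pcdhb19 and Pcdh20 overlap them.

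Of the 62 probe sets that carry the symbol of a protocadherin alone, 44 were below 0 in the 118Q line, beside 41.3% of all genes. The shares of genes in this paragraph count 1 probe set a gene, so their unit differs from that of the 62. Limma called 0 of them (1.25% of all probe sets), with a smallest adjusted p of 0.0984. The 0 is from a fit over the 34945 probe sets with a single symbol, and the 1.25% from a fit over all 45037. The groups did not overlap in 12 of them, against 16.9% of all probe sets on the array. Of these, 10 were lower and 2 higher in knock-ins, where 6.11% of all genes were lower and 12% higher without overlap. Among the 16 genes with several, all probe sets were below 0 in 6, all above 0 in 1 and of both signs in 9. No such split over all genes is given here. Pcdh10 was among those of both signs, where a dimmer probe set was at 0.37 (SE 0.11) with every knock-in above every wild type and the brighter one at -0.22 (SE 0.26). In Pcdhb21 a dimmer probe set was at -0.53 (SE 0.16) without overlap and the brighter one at -0.061. Both were picked after their values were seen.

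The low values were uneven between the 3 knock-in arrays. The median deviation of clustered members from the wild-type mean was -0.061, -0.36 and -0.12 on knock-in arrays 1, 2 and 3, and of non-clustered members -0.042, -0.37 and -0.27, while that of all genes was 0.020, 0.055 and 0.035. Without knock-in array 2 there were 24 of 35 members below 0, against 43.9% of all genes, with medians of -0.043 for clustered and -0.16 for non-clustered members. The 8 brighter members were then still all below 0, with a median of -0.26. Without array 1 the clustered median was -0.22, and without array 3 it was -0.20.

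**Figure D4:**
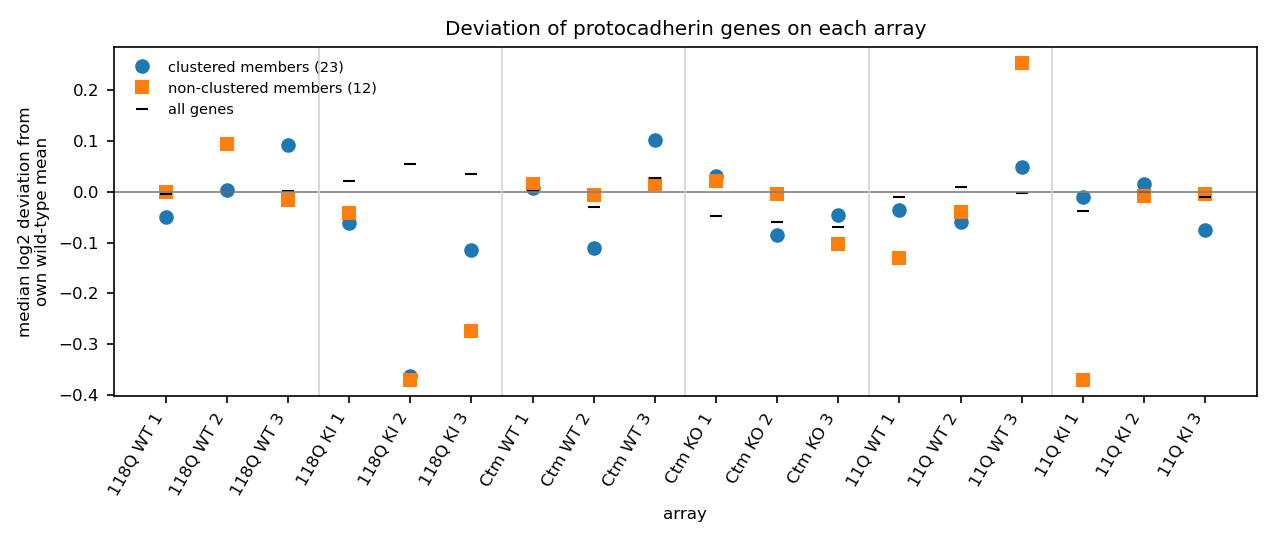
Median log2 deviation of the 23 clustered and 12 non-clustered protocadherins, and of all genes, from the mean of the line's own wild types on each array. Knock-in array 2 of the 118Q line stands lowest for the clustered genes at -0.36, and 11Q knock-in array 1 reaches -0.37 for the non-clustered genes.

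Other measures moved with the 118Q comparison. A measure of RNA quality, taken from array controls as the mean log2 excess of 3′ over 5′ probe sets, was 0.415 to 0.473 in knock-ins and 0.496 to 0.613 in wild types. Of the Purkinje cell markers 7 of 10 fell, as 0.731% of all genes did, with a log2 summed level of 12.5 to 12.9 against 13.0 to 13.1. Against that same 0.731%, of the interneuron markers 1 of 7 fell (9.09 to 10.2 against 10.1 to 10.5), of the endothelial and pericyte markers 2 of 10 fell (8.44 to 8.75 against 8.77 to 9.11), and of the microglial markers 4 of 10 rose, as 0.808% of all genes did (8.18 to 8.64 against 7.90 to 8.05). Of the granule cell markers 0 of 9 were called, with 12.6 to 12.7 against 12.7 to 12.8. A level summed over several genes lies above 0 on this scale even where every gene is dim. The summed levels therefore do not show by themselves that a cell type was present. The part of these measures in the protocadherin values was not tested. With RNA quality as a covariate limma called 0 of 35. Since it called 0 without the covariate too, this count cannot show whether the values depend on RNA quality.

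In the Ctm line limma called 0 of 35 members, where it called 0.929% of all genes, and 0 reached an unadjusted p under 0.05 (12% of all genes). Below 0 were 21 of 35, against 64.4% of all genes, and the medians were -0.027 for clustered and -0.052 for non-clustered members, beside -0.060 over all genes. The 95% intervals ran from -0.75 to 0.86 at most, so changes of up to 1.81-fold in some member would not have been excluded. Every knockout lay below every wild type in Pcdhb9, Pcdhb15 and Pcdhb19 (15.1% of all genes) and above in Pcdhb8 alone (6.19% of all genes).

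Pcdhb8 read 1.71, 1.76 and 1.70 in the Ctm wild types and 2.12, 1.91 and 2.17 in the knockouts, a change of 0.35 (SE 0.18, adjusted p = 0.473). Pcdhgc4 read 3.30, 3.98 and 3.27 against 4.09, 4.12 and 3.54, an overlap, with a change of 0.40 (SE 0.21, adjusted p = 0.479). Pcdhb19 read 1.96, 1.96 and 2.39 against 1.82, 1.74 and 1.71, with a change of -0.35 (SE 0.19, adjusted p = 0.498). None of these differences was distinguishable from the spread between arrays at the threshold used.

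The 3 non-clustered genes of smallest p in the Ctm line all had overlapping groups. Pcdh19 read 3.13, 3.32 and 3.36 in the wild types and 2.78, 3.40 and 2.86 in the knockouts, at -0.26 (SE 0.19, adjusted p = 0.638). Pcdh17 read 5.45, 5.24 and 5.12 against 5.49, 5.65 and 5.28, at 0.20 (SE 0.17, adjusted p = 0.693). Pcdh15 read 1.45, 1.53 and 1.44 against 1.32, 1.24 and 1.44, at -0.14 (SE 0.13, adjusted p = 0.716). A dimmer Pcdh15 probe set had every knockout above every wild type, at 0.42 (SE 0.16, adjusted p = 0.300), and the remaining one was at -0.0033. Without wild-type arrays 2 and 3, which leaves a single wild type, 19 of 35 members were below 0, against 60.9% of all genes. The changes of Pcdhb8, Pcdhgc4, Pcdhb19, Pcdh19, Pcdh17 and Pcdh15 were then 0.36, 0.62, -0.20, -0.12, 0.025 and -0.12. The medians were -0.089 for clustered and -0.027 for non-clustered genes.

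In the 11Q line limma called 0 of 35 members and 0 of all genes (0%), and 1 member reached an unadjusted p under 0.05 (5.49% of all genes). That member was Pcdhb5, a dim gene, which read 1.13, 1.10 and 0.888 in the wild types and 1.35, 1.30 and 1.57 in the knock-ins. All 3 knock-ins were higher, and the change of 0.37 (SE 0.10, 95% interval 0.16 to 0.58) had an adjusted p of 0.756. Below 0 were 23 of 35 members, against 54.3% of all genes, with medians of -0.016 for clustered and -0.077 for non-clustered members.

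Pcdhb22 read 2.56, 2.98 and 2.84 in the 11Q wild types and 2.44, 2.66 and 2.27 in the knock-ins, at -0.34 (SE 0.18). Pcdhb15 read 2.94, 2.91 and 3.03 against 2.76, 2.93 and 2.57, at -0.21 (SE 0.11). Both overlapped, by 1 array, and each had an adjusted p of 0.876. Every knock-in lay below every wild type in Pcdhb4 alone (6.12% of all genes) and above in Pcdhb5 alone (4.14% of all genes).

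Pcdh9, the brightest of the non-clustered probe sets, read 7.46, 7.70 and 8.06 in the 11Q wild types and 7.21, 7.48 and 7.77 in the knock-ins, at -0.26 (SE 0.15). Pcdh7 read 3.47, 3.46 and 4.08 against 2.73, 3.46 and 3.55, at -0.43 (SE 0.27), and Pcdh8 read 3.26, 3.06 and 4.11 against 3.02, 3.51 and 2.97, at -0.31 (SE 0.20). In each of these 3 genes wild-type array 3 was the highest of the wild types, and each had an adjusted p of 0.876. Without that array Pcdh8 was at 0.0075, and 18 of 35 members lay below 0 in place of 23, against 55.1% of all genes. The summed log2 level of choroid plexus markers was 11.997 to 12.1 in the 11Q wild types and 6.497 to 11.9 in the knock-ins. Its part in these values was not tested. With choroid plexus content as a covariate limma called 0 of 35. Since it called 0 of all genes without the covariate, this count cannot show whether the values depend on choroid plexus content.

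The change in 1 line was compared with that in another by the interaction term. For 118Q against Ctm, limma called 0 of 35 members (2.93% of all genes, 1.09% with the lower change in 118Q) and 4 passed an unadjusted p under 0.05 (18.9% of all genes, 5.79% lower), each with the lower change in 118Q. These were Pcdhb17 at -0.54 (SE 0.18, adjusted p = 0.0998), Pcdhgc4 at -0.84 (SE 0.30, 0.131), Pcdhb7 at -0.64 (SE 0.25, 0.161) and Pcdh8 at -0.65 (SE 0.29, 0.221). Without Ctm wild types 2 and 3 the differences were -0.57, -1.06, -0.61 and -0.52, with adjusted p-values of 0.311, 0.221, 0.426 and 0.580. Pcdhgc4 combined a value of -0.44 in the 118Q line, where it read 3.98, 3.76 and 4.32 in the wild types and 3.14, 3.69 and 3.91 in the knock-ins, with the 0.40 of the Ctm line. For 118Q against 11Q and for Ctm against 11Q, limma called 0 members and 0 of all genes (0%), with 3 and 1 members at an unadjusted p under 0.05 (10.3% and 8.48% of all genes). The 3 comparisons share arrays, and the 11Q changes rest on the same 3 wild types in both.

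Among the wild types of the 3 lines, limma's F test called 1 of 35 members, Pcdhgc4, where it called 9.78% of all genes, and 5 members passed an unadjusted p under 0.05 (24.8% of all genes). Pcdhgc4 read 4.56, 4.21 and 4.22 in the 11Q, 3.98, 3.76 and 4.32 in the 118Q and 3.30, 3.98 and 3.27 in the Ctm wild types. The order of the means was 4.33, 4.02 and 3.52; the 118Q range overlapped each of the others, while the 11Q and Ctm ranges did not overlap. The adjusted p was 0.0481, and it ran from 0.0232 to 0.202 when 1 wild-type array was left out, with the call lost on leaving out any of 11Q wild types 1, 2 and 3, 118Q wild type 1 and Ctm wild types 1 and 3. Without Ctm wild types 2 and 3 together it was 0.197. Where in the gene its probes lie was not analysed here, so other gamma transcripts with the same constant exons cannot be told apart from it. Among the shared alpha probe sets, C differed between the wild types as well (adjusted p = 0.0257, where 10.8% of all probe sets were called), with 5.18 in Ctm, 4.72 in 118Q and 4.54 in 11Q, and the adjusted p was 0.252 without Ctm wild types 2 and 3.

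The genes that regulate the choice of clustered promoters were followed as a list of 20, of which 19 were measured. In the 118Q line 1 of 19 fell (0.731% of all genes) and 0 rose, with a median of -0.068. The one that fell was Smc1a, a core subunit of the cohesin ring, at -0.44 (SE 0.10, adjusted p = 0.0372), with every knock-in below every wild type. Its call was lost with the mean of its probe sets, which gave -0.25, with RNA quality as a covariate (adjusted p = 0.111), with the 6 arrays of the line alone (0.254), and on leaving out 118Q wild types 1 or 3 or knock-ins 2 or 3 (up to 0.163). Smchd1, a chromatin protein that silences clustered protocadherins, was at -0.52 (SE 0.14, adjusted p = 0.0659), and Pds5b, a cohesin partner, at -0.31 (SE 0.11, 0.157).

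In the Ctm line 0 of 19 were called (0.929% of all genes), and 7 had every knockout above every wild type (6.19% of all genes). The lowest p-values were those of the cohesin subunits Smc3 at 0.35 (SE 0.096, adjusted p = 0.0966) and Stag2 at 0.51 (SE 0.14, 0.0992) and the cohesin loader Nipbl at 0.64 (SE 0.19, 0.134). Without Ctm wild types 2 and 3 these were at 0.22, 0.12 and 0.22 (adjusted p = 0.859, 0.961 and 0.946). Between the wild types 5 of 19 were called, against 9.78% of all genes, namely Smc3, Stag1, Stag2, Pds5a and Pds5b, and each was lowest in the Ctm wild types. Smc3, for instance, averaged 5.55 there, 6.27 in the 118Q and 6.19 in the 11Q wild types (adjusted p = 0.000375). Without Ctm wild types 2 and 3 none of these calls remained, in a comparison that then rests on a single Ctm wild type. In the 11Q line 0 of 19 were called, and the smallest p-values belonged to Dnmt3a at 0.25, Wapl at -0.29 and Trim28 at 0.17 (adjusted p = 0.876 each).

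Of 24 measured intracellular partners of protocadherins, 1 fell in the 118Q line (0.731% of all genes) and 0 were called in the Ctm and 11Q lines (0.929% and 0% of all genes), with medians of -0.022, -0.019 and -0.051 for 118Q, Ctm and 11Q. That gene was Ret, a receptor kinase that binds clustered protocadherins, at -1.03 (SE 0.22, adjusted p = 0.0306). It went from 4.93 to 3.90 on average, and the call was lost with RNA quality as a covariate (0.0679), with the 6 arrays alone (0.214) and on leaving out 118Q wild types 2 or 3 or knock-ins 2 or 3 (up to 0.137). The scaffold Axin1 was at 0.33 and protein kinase C alpha, Prkca, at -0.33, with adjusted p-values of 0.127 and 0.161. In the Ctm line Ppp1ca, Pdcd10 and Abi2 had the smallest p-values, at -0.24, 0.19 and 0.18, and in the 11Q line Taok2, Wasf3 and Nlgn2, at 0.68, 0.38 and 0.22.

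Among other cadherins, 0 of 25 classical cadherins and catenins were called in the 118Q line (1.54% of all genes), where 7 had every knock-in below every wild type (6.11% of all genes) and the median was -0.0100. Cdh2, or N-cadherin, was at -0.56 (SE 0.17, adjusted p = 0.100), Cdh5 of blood vessels at -0.49 (SE 0.16, 0.126) and Cdh1 at -0.71 (SE 0.25, 0.158). In the Ctm line 1 of 25 rose (0.835% of all genes), Cdh19, at 1.21 (SE 0.20, adjusted p = 0.00900). The wild types of that line averaged 1.61, against 3.20 and 3.37 in the 118Q and 11Q wild types, and 2.82 was the mean of the knockouts. Against the 6 wild types of the other lines it was at -0.46 (adjusted p = 0.0993), and without Ctm wild types 2 and 3 at 0.87 (0.703). Its call was also lost with the 6 arrays alone (0.0895) and on leaving out Ctm wild types 2 or 3 or knockouts 2 or 3 (up to 0.0886).

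Cdh7 was at 0.91 (SE 0.23, adjusted p = 0.0677) and Cdh5 at -0.34 in the Ctm line. In the 11Q line 0 of 25 were called, and Ctnna1, Cdh19 and Ctnna2 had the smallest p-values, at -0.44, -0.52 and -0.23. Of 20 large and other cadherin superfamily genes, 1 fell in the 118Q line (0.731% of all genes), the calsyntenin Clstn2, a synaptic membrane protein, at -0.92 (SE 0.19, adjusted p = 0.0306), and 0 were called in the other lines. Its call was lost with the mean of its probe sets (0.0514), with RNA quality as a covariate (0.0905), with the 6 arrays alone (0.245) and on leaving out 118Q wild types 1 or 3 or knock-ins 2 or 3 (up to 0.143). Clstn3 and Fat1, a giant cadherin, were at -0.59 and -0.48 (adjusted p = 0.0927 and 0.116). The smallest p-values elsewhere were those of Fjx1, Cdh23 and Dsg2 in the Ctm line, at -0.27, 0.24 and -0.26, and of Celsr1, Cdhr4 and Celsr3 in the 11Q line, at 0.26, -0.33 and 0.27.

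Of the genes that flank the clustered protocadherins 20 were followed. Limma called 0 of 20 in each line (1.54%, 0.929% and 0% of all genes in 118Q, Ctm and 11Q). Below 0 in the 118Q line were 8 of the 20, near the 41.3% of all genes, and 12 were above. Their median was 0.17, beside 0.040 over all genes and -0.082 for the clustered protocadherins. Every knock-in lay above every wild type for 7 of the 20 (12% of all genes) and below for 0 (6.11% of all genes). Apbb3, Ndufa2 and Tmco6 had the smallest p-values, at 0.52 (SE 0.14, adjusted p = 0.0660), 0.26 (0.156) and 0.36 (0.179). In the Ctm line Ndufa2, Cd14 and Wdr55 were at -0.21, 0.38 and -0.28, and in the 11Q line Slc35a4, Fchsd1 and Slc25a2 at 0.24, 0.20 and 0.21. The difference between the flanking and the clustered genes was not tested.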

How the data were processed

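Expression was measured with Affymetrix mouse arrays in 18 samples of mouse cerebellum, 3 in each of 6 groups, from total RNA with an integrity number above 5.0 per the labels. The authors deposited log2 values per probe set, made with RMA (version not stated) per the submitters' processing notes. The zero point of the scale is not given in the sources used here. Of 45101 probe sets, 64 array controls and 10092 with several symbols or none were left out, and the 34945 others gave 18193 genes by the highest mean over 18 arrays.

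Group means were fitted with limma 3.58.1 in R 4.3.3 over all 18 arrays (lmFit, eBayes, 12 residual degrees of freedom). Tests were two-sided, with Benjamini-Hochberg adjustment over all genes and a threshold of 0.05, and the script was tested on simulated data. The members and lists were chosen with earlier results of these data known. All 35 members were accounted for. Array values were given for members called and, per line, the 3 clustered and 3 non-clustered of smallest p; from each further list those called and up to 3 of smallest p. Alternatives covered the probe set kept, dim genes, the variance prior, array weights, normalization, RNA quality, choroid plexus content, replicate number, control arrays, a fold change of at least 1.5 and each array left out. The number of arrays limits the precision.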

Additional observations from a re-analysis of the deposited data

Results flagged for a closer look

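Limma's interaction term called a difference between the 118Q and the Ctm change in 2 of 19 promoter choice regulators and 1 of 25 classical cadherins and catenins, where it called 2.93% of all genes, and 1.09% with the lower change in 118Q. Smchd1 differed by -0.79 (adjusted p = 0.0402), Pds5b by -0.58 (adjusted p = 0.0497) and Cdh19 by -1.12 (adjusted p = 0.0448), each with the lower change in the 118Q line. All 3 share arrays, and in each the Ctm wild types, at 5.63, 6.31 and 1.61, lay below the 118Q wild types, at 5.98, 6.84 and 3.20. Without Ctm wild types 2 and 3 the differences were -0.66, -0.54 and -0.78 (adjusted p = 0.290, 0.280 and 0.356), none of them called. All 3 calls were lost with RNA quality as a covariate, and leaving out 1 of the 12 arrays ended the call of Smchd1 in 9 cases, of Pds5b in 11 and of Cdh19 in 9, with adjusted p-values of up to 0.122, 0.126 and 0.126. No protocadherin was called by the interaction term in the main setting.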

How the results depend on the processing

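Called members in the 118Q line, 0 in the main setting, were 1 with the dimmer 50% of genes left out (567 genes called in all, against 280), 4 when arrays were weighted (1740 genes), 1 after renewed quantile normalization, 5 with the 6 wild types of the other lines as control (2577 genes), and 0 to 2 on leaving out 1 array (1 without wild type 1, 2 without knock-in 1), all lower. Pcdhb17 was among them in all of these settings except without wild type 1. Where a number over all genes is given it rose as well, so these counts show nothing particular to protocadherins. In the Ctm line the count was 1 (Pcdh19) with the other lines' wild types. For 118Q minus Ctm it was 3 with array weights, 1 after quantile normalization and 0 to 1 on leaving out 1 array. Between the wild types it was 3 with every probe set, 2 without the dimmer 50%, 0 with the mean of probe sets, quantile normalization, the choroid plexus covariate, the replicate block and Ctm wild types 2 and 3 both left out, and 0 to 1 on leaving out 1 array. In the 11Q line and the other differences every alternative gave 0. Member counts without a number over all genes beside them show only that the count depends on the setting.

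With the replicate block 0 members were called in each line, and 225 genes in place of 280 in the 118Q line. After each gene's group mean was subtracted, same-numbered mutant and wild-type arrays of a line had correlations across genes from -0.20 to 0.23. The numbers were therefore not taken as pairs. The replicate block also ended the calls of Smc1a (adjusted p = 0.0529) and, for 118Q minus Ctm, of Cdh19 (0.0593) and Pds5b (0.0633).

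Of the 282 values of named members under an alternative, 265 kept direction and side of the threshold, 11 became called and 6 changed sign: Pcdhgc4 in Ctm (-0.26), and Pcdh8 in 11Q (0.14), with the other lines' wild types; Pcdh15 in Ctm (0.093), Pcdhb15 in 11Q (0.016) and Pcdh9 in 11Q (0.015) with the mean of probe sets; and Pcdh8 in 11Q on leaving out 1 array (-0.52 to 0.0075). Cdh19 in Ctm turned to -0.46 with the other lines' wild types.

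Alpha probe set B in 118Q was at -0.53 with the RNA quality covariate and -0.57 with 6 arrays alone, both no longer called, and -0.71 to -0.48 on leaving out 1 array. Set A was called under trend and robust settings (-0.50) and with the other lines' wild types (-0.59), and ran from -0.60 to -0.34 on leaving out 1 array; C was called with the other lines' wild types (-0.52). Sign changes of uncalled alpha values were, in Ctm, A with array weights (-0.0054), the choroid plexus covariate (-0.020) and 1 array left out (-0.082 to 0.089), B with quantile normalization (0.0056), 1 array left out (-0.053 to 0.060), Ctm wild types 2 and 3 both left out (0.089) and other wild types (0.32), and C with other wild types (0.35); in 11Q, A with the choroid plexus covariate (-0.0056) and other wild types (-0.073), B with quantile normalization (0.011) and 1 array left out (-0.10 to 0.065), and C with other wild types (-0.33). Leaving out Ctm wild types 2 and 3 together, the alpha fit and the alternatives for list genes were chosen after seeing the data. Causes were not tested. Of the 35 members, 27 lay in the dimmer 50% of genes, where signal over background limits what can be seen.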
